A study of Mus musculus with 12 samples.

Results

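The genes described here are 58 of the 41009 rows of an expression table from mouse tumours. They were listed at an FPKM of exactly 0 in each of the 6 libraries from mice treated without a PD-1 binding arm, and above 0 in each of the 6 libraries from mice treated with one. FPKM scales the fragments of a gene by the length of its transcript and by the depth of the library. A mean FPKM of at least 1 over the 6 libraries with the arm was also required. Without that minimum, 1142 rows had the pattern. The FPKM values themselves chose the genes, so their absence in one set of libraries and presence in the other is a description and carries no test.

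Cells of the mouse mammary carcinoma line 4T1, marked with mCherry, had been placed in the mammary fat pad of BALB/c females aged 4 to 5 weeks. From day 7 the mice received intraperitoneal Ctrl-Fc at 5 mg/kg, VHH-OD-Fc at 3.5 mg/kg, VHH-PD-1-Fc at 2.6 mg/kg or, with both arms, 4.3 mg/kg of VHH-OD-PD-1-Fc. Each group has 3 libraries. VHH names the small binding domain found in camelid antibodies, Fc the constant region that carries it, and PD-1 a receptor that restrains T cells. The design text of the series speaks instead of LLC tumours and digoxin doses, and the sample labels were followed. The labels do not spell out OD, and the 4T1 line and the mouse strain are common to all 4 groups. The PD-1 arm is present in VHH-PD-1-Fc and in the construct VHH-OD-PD-1-Fc, and it is missing from Ctrl-Fc (called Ctrl here) and VHH-OD-Fc. The labels name no batch of extraction or sequencing, so a batch that coincided with the PD-1 arm and the arm itself cannot be told apart. Nor do they state whether libraries of a group stem from different animals, and the spread on which the p-values rest may thus be technical.

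Most of the 58 genes belong to classes that code for no protein. Small nuclear RNAs form the core of the spliceosome, the machine that removes introns, and each type (U1, U2, U4, U6) pairs with its own partners there. Small nucleolar RNAs guide chemical modification of ribosomal and spliceosomal RNA, and 5S ribosomal RNA is a part of the large ribosomal subunit. The mouse genome holds many copies of these small RNA genes, of which many are retrotransposed and degenerate. Processed pseudogenes are likewise reverse-transcribed copies of messenger RNAs. Mature small nuclear and small nucleolar RNAs carry no poly(A) tail, and the libraries here were made from poly(A)-enriched RNA, per the labels.

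Gene classes were read from GENCODE M21 (GRCm38), which held the symbols of 44 of the 58 genes, and from RefSeq for the pseudogene Gm31328. They comprised 18 pseudogenes, 13 small nucleolar RNAs, 11 small nuclear RNAs, 2 long noncoding RNAs and 1 ribosomal RNA. RefSeq lists 7 of the 11 small nuclear RNAs, the small nucleolar RNA Gm24343 and n-R5s152 as pseudogenes, and the GENCODE M21 class is used here. Another 13 genes had no class, since neither GENCODE M21 nor RefSeq held their symbol. No gene with a class was protein coding, although that class held 45.5% of the rows. Whether any of the 13 without a class codes for a protein is not known here. Small nucleolar RNAs were 22.4% of the genes and 1.12% of the rows, and small nuclear RNAs were 19.0% and 1.27%. Pseudogenes were 31.0% of the genes and 17.3% of the rows. In the wider set of 1142 rows the shares were 20.1% protein coding, 27.0% long noncoding RNA, 1.93% small nucleolar RNA and 1.05% small nuclear RNA.

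**Figure D1:**
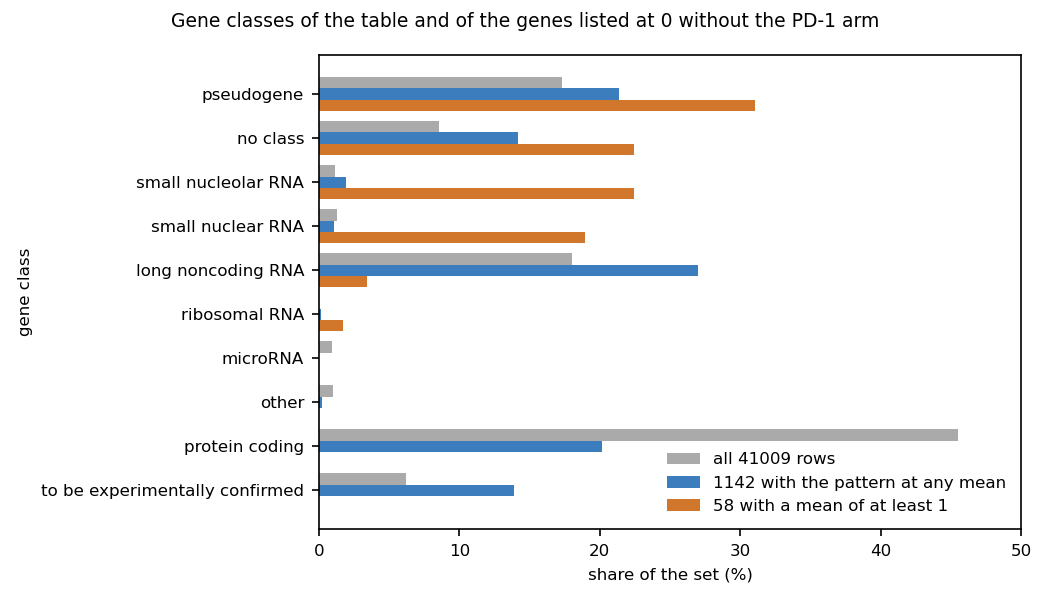
Horizontal bars give the share of each gene class (%) among all 41009 rows (grey), the 1142 rows with the pattern at any mean (blue) and the 58 genes with a mean FPKM of at least 1 (orange). Small nuclear and small nucleolar RNAs make up 19.0% and 22.4% of the 58 genes, against 1.27% and 1.12% of all rows. None of the 58 is classed as protein coding, and 13 have no class.

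Of the 58 genes, 55 carry a placeholder name of Gm plus a number. The other 3 are n-R5s152, a copy of the 5S ribosomal RNA gene, and Vmn2r-ps18 and Olfr737-ps1, which are pseudogenes of the vomeronasal and olfactory receptor families. The 44 genes matched to GENCODE M21 had a median transcript length of 132.5 bases, and 79.5% were shorter than 300 bases. Among all rows with a single GENCODE M21 transcript the median was 832 bases and 14.1% were shorter than 300 bases. The rows that had the pattern but a mean FPKM under 1 had a median of 1237 bases, and 4.78% were shorter than 300 bases. FPKM divides by length, so an FPKM of 1 corresponds to 5.54 to 6.56 reads in a transcript of 127 bases, the median of the small RNA genes, and to 53.9 to 63.9 reads at 1237 bases. In all, 24 of the 25 small RNA genes are shorter than the 150 bp reads.

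Of the small nucleolar RNA genes, 6 are most similar, among named genes, to Snora17, which belongs to the H/ACA type. Snora17 is shown with 4 of them because Gm24255 and Gm24908 gave the 2 calls described below and Gm24278 and Gm26288 show how far these copies diverge. Capitals mark the longest unbroken run each gene shares with Snora17, and the sequences are those of GENCODE M21 (GRCm38).
Snora17: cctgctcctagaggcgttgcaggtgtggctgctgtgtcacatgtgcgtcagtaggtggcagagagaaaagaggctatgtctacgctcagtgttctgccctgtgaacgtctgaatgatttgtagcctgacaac
Gm24255: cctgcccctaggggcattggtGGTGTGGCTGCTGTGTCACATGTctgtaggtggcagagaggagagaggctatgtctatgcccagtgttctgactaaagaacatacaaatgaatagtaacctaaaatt
Gm24908: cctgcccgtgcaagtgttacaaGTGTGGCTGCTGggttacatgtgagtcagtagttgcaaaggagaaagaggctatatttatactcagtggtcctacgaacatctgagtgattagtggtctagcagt
Gm24278: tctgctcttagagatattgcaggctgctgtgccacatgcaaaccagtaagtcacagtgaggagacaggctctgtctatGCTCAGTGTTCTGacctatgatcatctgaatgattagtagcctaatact
Gm26288: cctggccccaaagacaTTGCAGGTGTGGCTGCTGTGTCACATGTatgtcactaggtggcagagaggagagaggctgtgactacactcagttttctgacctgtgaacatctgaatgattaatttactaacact

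The shared run was 23 bases in Gm24255, 12 in Gm24908, 13 in Gm24278 and 28 in Gm26288. Identity to Snora17 over the aligned part was 85.4% for Gm24255, 76.4% for Gm24908, 76.8% for Gm24278 and 85.6% for Gm26288. H/ACA RNAs typically end in ACA followed by 3 further bases. In the Snora17 sequence above, ACA lies nearer the end, so Snora17 itself lacks this exact spacing. The exact end was found on the transcript strand in 3 of the 13 small nucleolar RNA genes and in 28.8% of all 459 rows of the class with a sequence. Those rows were not limited to the H/ACA type, so neither share measures a loss of the end. One of the 3 is Gm25038, 86.0% identical to Snora75 over the aligned part, in which the capitals mark ACA at that place.
Gm25038: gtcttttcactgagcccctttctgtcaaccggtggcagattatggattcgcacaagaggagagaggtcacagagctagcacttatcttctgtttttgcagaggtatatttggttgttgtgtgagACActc

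Of the small nuclear RNA genes, 6 are most similar to Rnu6, the gene of U6 RNA, which pairs with the 5′ splice site during splicing. Gm23730 was 94.4% identical to Rnu6 over its whole length, and Gm24592 was 92.9% identical over 90.6% of its length. A search of GENCODE M21 transcripts found 813 genes similar to Gm25670, 780 to Gm23730 and 701 to Gm24592. For the genes related to Snora17 the number of similar genes ran from 116 for Gm24908 to 510 for Gm26288. Reads from near-identical copies can be split or assigned to either, and how the authors' counting treated them is not given in the sources used here, so values of single copies are uncertain.

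The FPKM values resolve into whole steps. A step was taken as 1 read. Whether mates of a pair were counted singly or as 1 fragment is not given in the sources used here, and in Ctrl replicate 1, for example, 1142 genes sat at 2 steps and 756 at 1. The step between low values times transcript length gave 43.6 to 51.7 M reads per library with the PD-1 arm and 47.0 to 60.9 M without it, where M stands for mega. Depending on the library, 95.0% to 96.3% of the low values were whole to within 0.05 of a step. All 44 genes with a known length gave whole reads in all 6 libraries with the arm. Their median was 15.5 reads in VHH-PD-1-Fc replicate 1, 5.5 in replicate 2 and 13.5 in replicate 3. It was 9.0, 12.5 and 12.5 reads in the 3 VHH-OD-PD-1-Fc libraries. A single gene held from 1 to 100 reads in a library, so most of the levels below rest on few reads. PCR copies are not told apart from separate molecules, so read numbers convey counting error only.

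Among the small nucleolar RNA genes, Gm22944 had the highest mean FPKM, 3.05. Its FPKM was 3.95, 0.345 and 2.04 in VHH-PD-1-Fc and 5.42, 2.56 and 4.01 in VHH-OD-PD-1-Fc. The groups overlapped, and VHH-PD-1-Fc replicate 2 held only 2 of its 119 reads. GENCODE M21 lists no other gene that overlaps it. Gm25038, the copy of Snora75, followed with 5.22, 0.706 and 3.87 in VHH-PD-1-Fc and 3.01, 2.16 and 2.28 in VHH-OD-PD-1-Fc. The VHH-OD-PD-1-Fc libraries lay within the range of the VHH-PD-1-Fc libraries. Gm24278 had 1.21, 0.903 and 2.59 against 2.11, 2.05 and 5.29, with overlap. Gm23615, the shortest at 65 bases, had 3.37, 0.353 and 2.98 in VHH-PD-1-Fc and 0.634, 2.77 and 2.74 in VHH-OD-PD-1-Fc. It lies within Pdzd4 on the opposite strand. The class ranged from a mean FPKM of 1.01 to 3.05, and 9 of its 13 genes overlap no other GENCODE M21 gene, against 40.3% of all rows of the class.

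**Figure D2:**
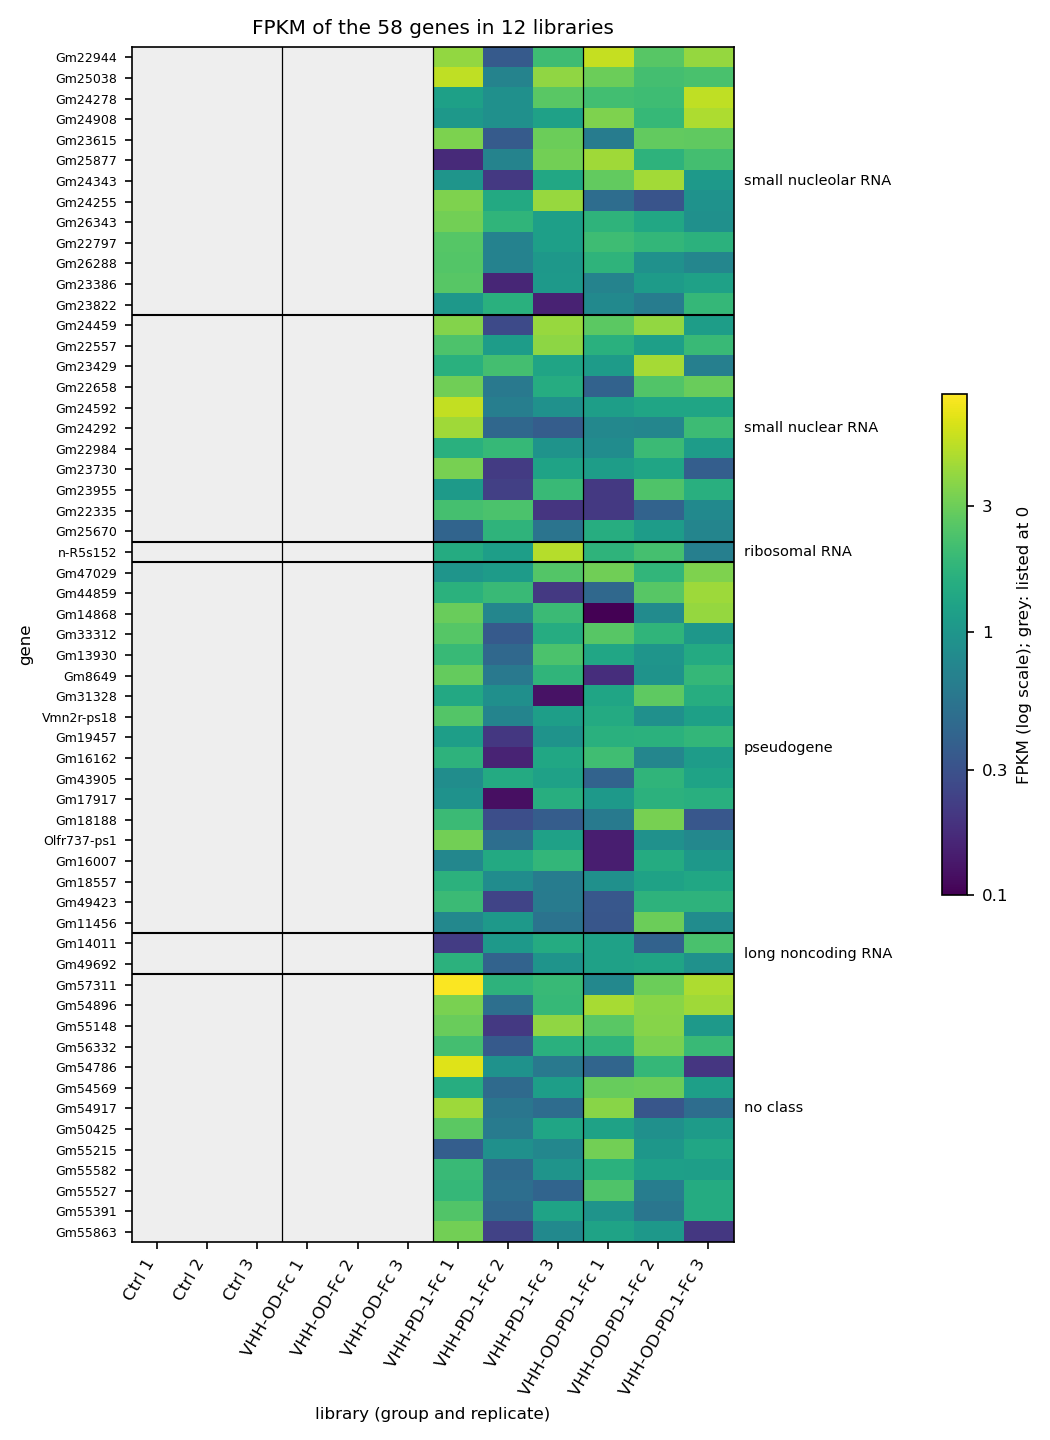
Each row is 1 of the 58 genes, grouped by class, and each column is 1 of the 12 libraries, with FPKM in colour on a log scale and grey where the table lists 0. The 6 columns without the PD-1 arm are grey throughout by the choice of genes, and VHH-PD-1-Fc replicate 2 is the darkest of the other columns for 29 genes.

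Among the small nuclear RNA genes, the authors' deposited table attaches U6 snRNP to 7, U4 snRNP to 2, U1 snRNP to Gm22658 and U2 snRNP to Gm22984. Gm24459, with a U4 term, was highest, at a mean FPKM of 2.60. It had 3.56, 0.267 and 4.05 in VHH-PD-1-Fc and 2.63, 3.96 and 1.15 in VHH-OD-PD-1-Fc, which overlapped. The second U4 gene, Gm23429, had 1.62, 2.15 and 1.30 against 1.11, 4.43 and 0.663. Gm22557, of the U6 term, had 2.36, 1.12 and 3.79 against 1.62, 1.18 and 1.94. In these 2 genes VHH-PD-1-Fc replicate 2 was not set apart as it was in Gm24459.

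Gm22658 had 3.11, 0.592 and 1.50 in VHH-PD-1-Fc and 0.399, 2.45 and 2.93 in VHH-OD-PD-1-Fc. Its most similar named gene, Rnu1a1, a gene of U1 RNA, went the other way: it had a mean FPKM of 0.401 ± 0.249 (SD, n = 3) in Ctrl and 0.397 ± 0.172 (SD, n = 3) in VHH-OD-Fc and was listed at 0 in all 6 libraries with the arm. Rnu2-10, 93.9% identical to Gm22984, was likewise listed at 0 in those 6 libraries, with 0.0343 ± 0.0593 (SD, n = 3) in Ctrl and 0.0962 ± 0.102 (SD, n = 3) in VHH-OD-Fc. Gm22984 itself had 1.61, 1.88 and 0.952 in VHH-PD-1-Fc and 0.844, 1.97 and 1.13 in VHH-OD-PD-1-Fc. Both named genes were too low for the test against Ctrl described below. After rescaling to TPM, Rnu1a1 passed the filter, which it could meet only through the libraries without the arm. It was then called lower in VHH-PD-1-Fc (limma adjusted p = 0.0094) and with both arms (0.0103). Its zeros with the arm also entered the shared estimate of the spread, so these calls add no support.

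The U6 copies Gm24592 and Gm24292 were each led by VHH-PD-1-Fc replicate 1. Gm24592 had 5.37 there and 0.649 to 1.32 in the other 5 libraries. Gm24292 had 4.29 there and 0.362 to 2.03 in the others. The small nuclear RNA closest to the minimum, Gm25670, had 0.409, 1.71 and 0.542 in VHH-PD-1-Fc and 1.54, 1.12 and 0.739 in VHH-OD-PD-1-Fc. Of the 11 genes, 8 overlap no other gene, against 46.5% of all rows of the class. n-R5s152, the 5S RNA copy, had 1.47, 1.16 and 4.88 against 1.73, 2.19 and 0.665, and 30 of its 71 reads came from VHH-PD-1-Fc replicate 3.

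Of the 18 pseudogenes, 14 are of the processed kind in GENCODE M21 and 3 are unprocessed. Below, copy and source mean the closest match by sequence among named genes, and descent was not tested. Of the 17 matched there, 10 (58.8%) overlap no other gene, a lower share than the 67.1% of all rows of the class, and neither long noncoding RNA is free of an overlap. Gm47029, a copy of the chromatin protein gene Hmgn1, had 0.983, 1.12 and 2.46 in VHH-PD-1-Fc and 3.09, 1.80 and 3.41 in VHH-OD-PD-1-Fc. Gm44859, of 94 bases, had 1.63, 1.95 and 0.206 against 0.438, 2.56 and 4.21. Gm14868, identical over its whole length to part of the chaperone-family gene Dnajc5b, had 2.94, 0.743 and 1.97 against 0.0954, 0.834 and 4.03. Dnajc5b itself was listed at 0, 0 and 0 in VHH-PD-1-Fc and at 0.115, 0 and 0 in VHH-OD-PD-1-Fc. Without the arm it was listed at 0.0157 in Ctrl replicate 1 and at 0 in the other libraries. Reads within an identical stretch cannot be told apart by sequence, so the values of Gm14868 are uncertain. The VHH-OD-PD-1-Fc libraries of Gm14868 spanned 1 to 44 reads, which was wider than the VHH-PD-1-Fc range of 7 to 29.

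Gm33312, Gm8649 and Gm11456 are copies of ribosomal protein messages. Gm33312, from Rpl35a, had 2.50, 0.345 and 1.52 in VHH-PD-1-Fc and 2.54, 1.75 and 1.01 in VHH-OD-PD-1-Fc. Gm8649, from Rps27a, had 2.82, 0.591 and 1.74 against 0.177, 0.945 and 1.87. Gm11456, from Rps27, had 0.769, 1.08 and 0.529 against 0.322, 2.97 and 0.850. All 3 had groups that overlapped. Gm13930, from H2az1, the gene of a histone variant, had 1.90, 0.436 and 2.31 against 1.34, 0.979 and 1.45.

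The 2 receptor pseudogenes had low values, and their presence in all 6 libraries with the arm was set by the rule. Vmn2r-ps18 had 2.48, 0.724 and 1.17 in VHH-PD-1-Fc and 1.46, 0.896 and 1.20 in VHH-OD-PD-1-Fc. Olfr737-ps1 had 3.17, 0.486 and 1.23 against 0.146, 0.920 and 0.768. Of the long noncoding RNAs, Gm14011, which lies opposite the receptor kinase gene Mertk, had 0.217, 1.06 and 1.47 against 1.23, 0.398 and 2.29. Gm49692 had 1.68, 0.405 and 0.965 against 1.23, 1.29 and 0.926, and its 411 reads were the most of any gene with a known length.

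The 13 genes without a class had no length here, so their FPKM could not be turned into reads. Gm57311 had the highest mean of all 58 genes, 3.30, with 7.75, 1.71 and 1.92 in VHH-PD-1-Fc and 0.768, 2.98 and 4.67 in VHH-OD-PD-1-Fc. Gm54896 had 3.33, 0.499 and 1.89 against 4.48, 3.70 and 4.30, and these groups did not overlap. Gm55148 had 2.96, 0.207 and 3.83 against 2.60, 3.61 and 1.07. The authors' deposited table gives Gm56332 a ribosomal term and Gm54786 a term for microRNA-mediated silencing. Gm54786 had 6.48 in VHH-PD-1-Fc replicate 1 and 0.202 to 1.84 in the other 5 libraries.

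The minimum cut through a continuum. The lowest genes inside it were Gm22335 with a mean FPKM of 1.02, Gm23822 with 1.01 and Gm25670 with 1.01. The highest outside it were Gm48170 with 0.990, Gm23479 with 0.985 and Gm47382 with 0.977. A limit of 3 reads, pooled over the 6 libraries without the arm, was assumed. The pooled level with the arm was 10.0-fold that limit for Gm22335, the lowest of the 44, and 147-fold for Gm49692, the highest. The limit leaves out spread between libraries and reads shared between copies. The rule's zeros and minimum shaped both the direction and the size of these folds, which carry no test.

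In their sum, the VHH-PD-1-Fc libraries spread beyond the whole range of the other group. The 58 FPKM values summed to 135.9, 45.6 and 88.9 in VHH-PD-1-Fc and to 90.3, 102.8 and 99.2 in VHH-OD-PD-1-Fc. VHH-PD-1-Fc replicate 2 held the lowest of the 6 values for 29 genes and the highest for 2. VHH-PD-1-Fc replicate 1 held the highest for 23 genes. The coefficient of variation over the 3 libraries had a median of 73.5% in VHH-PD-1-Fc and 52.5% in VHH-OD-PD-1-Fc. Without VHH-PD-1-Fc replicate 2, 117 rows met the rule instead of 58.

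VHH-OD-PD-1-Fc was set against VHH-PD-1-Fc to ask whether the genes differ between the groups with the arm, a contrast the rule did not use. limma was fitted to log2(FPKM + 1) over the 14306 genes that reached an FPKM of 1 in 3 or more libraries, with a threshold of 0.05 on the Benjamini-Hochberg adjusted p. Of the 58 genes, 51 passed that filter, and 2 were called, where 0.839% of all genes tested were called (0.538% higher and 0.301% lower in the construct with both arms). Both are copies of Snora17, and they went opposite ways. The filter could be met only through the libraries with the arm. The difference had a median of 0.14 on the log2(FPKM + 1) scale over the 51 genes and 0.04 over all genes tested. It was above 0 for 30 genes and below 0 for 21. The 2 groups did not overlap in 5 of the 51 genes, where they did not overlap in 21% of all genes tested.

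Gm24908 had 1.03, 0.903 and 1.22 FPKM in VHH-PD-1-Fc and 3.41, 1.89 and 4.67 in VHH-OD-PD-1-Fc. These were 6, 5 and 8 reads against 21, 12 and 30. All 3 VHH-OD-PD-1-Fc libraries were higher, by 1.02 on the log2(FPKM + 1) scale (SE 0.21, limma adjusted p = 0.0497). Gm24255 had 3.42, 1.43 and 4.08 against 0.483, 0.313 and 0.927 FPKM, or 20, 8 and 27 reads against 3, 2 and 6. All 3 VHH-OD-PD-1-Fc libraries were lower, with a difference of -1.29 (SE 0.25, limma adjusted p = 0.0437). Gm24255 reached an FPKM of 1 only in VHH-PD-1-Fc, so it passed the filter solely through the group where it was higher. Its call therefore cannot stand as evidence of a difference between the groups.

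The zeros that chose the genes also entered the shared estimate of the spread, since 6 of the 12 libraries had no variation at all in these genes. In a limma fit of only the 6 libraries with the arm, none of the 51 genes was called, 5 had an unadjusted p under 0.05, and 0.363% of all genes tested were called. The adjusted p was 0.168 for Gm24908 and 0.154 for Gm24255 in that fit, and the SE rose to 0.25 and 0.30. Gm24908 was called in 4 of 22 alternatives, with adjusted p from 0.0182 to 0.696, and Gm24255 in 4 of 19, from 0.0317 to 1.0. The sign held in each of these alternatives. The other Snora17 copies were not called: the difference was 0.66 for Gm24278 (SE 0.29), 0.15 for Gm23822 (SE 0.29), -0.13 for Gm26288 (SE 0.25) and -0.34 for Gm26343 (SE 0.22).

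**Figure D3:**
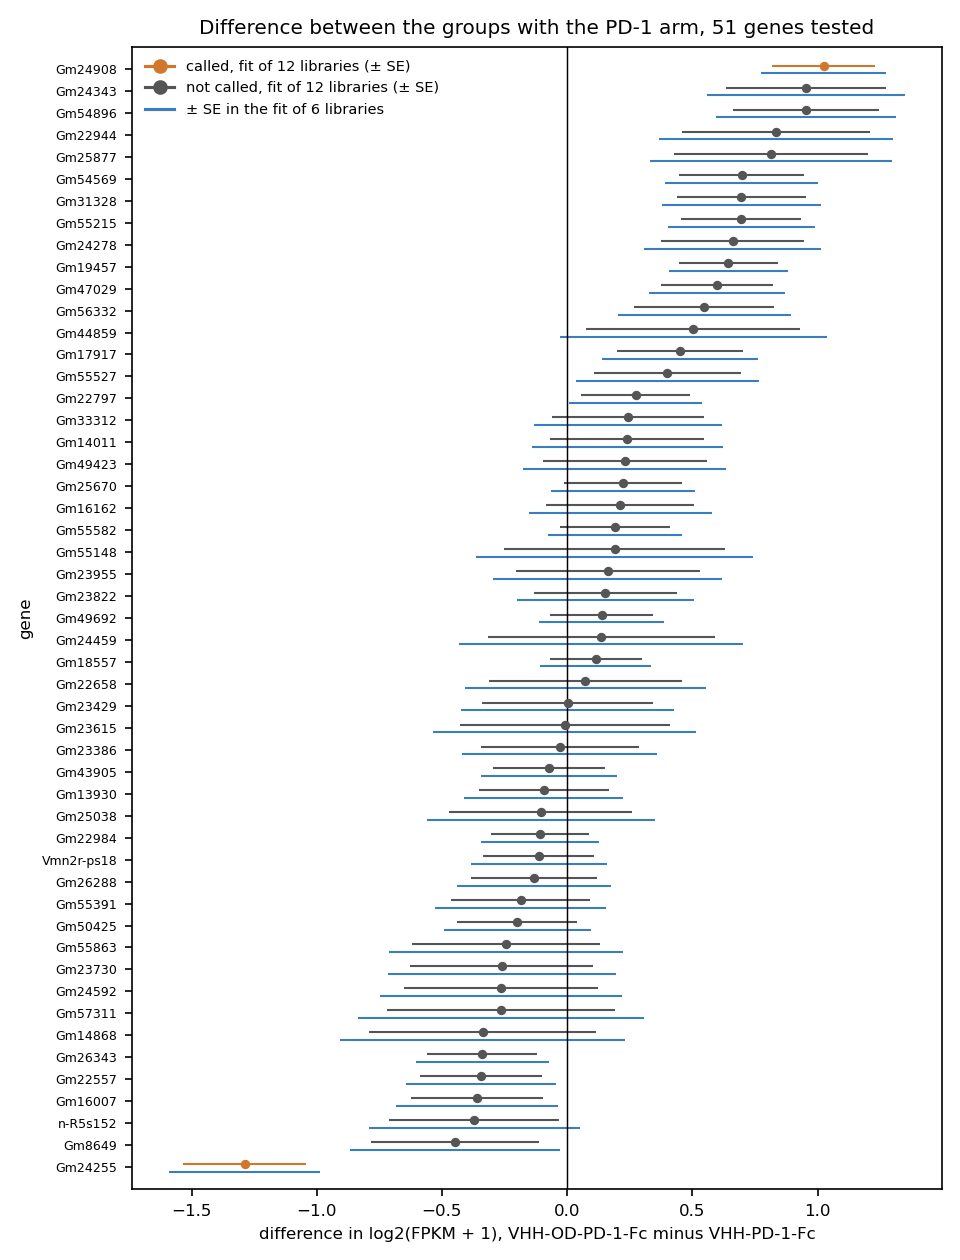
Points give the limma difference in log2(FPKM + 1), VHH-OD-PD-1-Fc minus VHH-PD-1-Fc, for the 51 genes tested, with bars of 1 SE from the fit of 12 libraries (orange called, grey not called) and, below each, 1 SE from the fit of 6 libraries (blue). Gm24908 at 1.02 and Gm24255 at -1.29 are the called genes, and the blue bars are wider throughout.

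The named genes most similar to the 58, and the genes that overlap them, were not chosen by their values and could be tested against Ctrl. The table holds 32 of them, of which 15 passed the filter. In VHH-PD-1-Fc, 4 were called higher and 1 lower than in Ctrl, 5 of 15, where 46.9% of all genes tested were called (14.6% higher and 32.3% lower). The counts for VHH-OD-PD-1-Fc were again 4 and 1, where 42.2% of all genes tested were called (15.1% higher and 27.1% lower). The comparisons share the Ctrl libraries. The balance of higher and lower calls moved with the scaling. Over all genes in VHH-PD-1-Fc it was 2092 higher and 4615 lower as deposited, 1831 and 7584 after rescaling to TPM, 3150 and 2812 with the median of ratios and 2815 and 2593 with quantile normalization. With both arms it was 2158 and 3878, 2057 and 6880, 2926 and 2601, and 2670 and 2573 in the same order. Among the related genes, TPM gave 3 higher and 4 lower of 17 tested in VHH-PD-1-Fc and 3 and 6 with both arms. Rnu1a1, which passed the filter only through libraries without the arm, was among the lower in both. The median of ratios gave 7 and 1, and 6 and 1, and quantile normalization 3 and 1, and 4 and 2. None of the 6 overlapping genes tested (Eif2b3, Evi5, Kdm5a, Lrba, Mertk and Pdzd4) was called in either comparison on the deposited scale. After rescaling to TPM, Lrba and Pdzd4 were called lower in both (limma adjusted p of 0.0127 to 0.0493) and Evi5 with both arms (0.0163), and quantile normalization called Eif2b3 higher with both arms (0.0413).

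Rps27, the source of Gm11456, had a mean FPKM of 367 ± 43.3 (SD, n = 3) in Ctrl, 386 ± 43.8 in VHH-OD-Fc, 913 ± 67.2 in VHH-PD-1-Fc and 771 ± 25.7 in VHH-OD-PD-1-Fc. It rose by 1.32 (SE 0.11, limma adjusted p = 3.8e-05) and by 1.07 (SE 0.11, limma adjusted p = 1.2e-04) on the log2 scale against Ctrl. Rpl35a, the source of Gm33312, went from 15.5 ± 2.75 FPKM in Ctrl to 28.8 ± 6.60 and 30.3 ± 4.00, and rose in both comparisons. So did Hsd17b10, a mitochondrial dehydrogenase gene, from 66.2 ± 3.62 to 120.9 ± 13.2 and 99.5 ± 3.85. It is the named gene closest to Gm16007, at 77.4% identity over the aligned part. Npm1, a nucleolar chaperone gene, fell from 406.8 ± 17.1 to 282.5 ± 46.0 and 291.9 ± 6.23. It is the closest named gene of Gm16162 (75.4% identity over 61.6% of its length) and Gm17917 (82.0% over 63.1%). These 4 calls held in both comparisons under each of the 3 other scalings tried. The 3 VHH-OD-PD-1-Fc libraries lay closer together than those of Ctrl in some genes and not in others. Epcam had 101, 99.5 and 98.0 FPKM against 14.3 to 162 in Ctrl. Rps27a had 339, 602 and 469 against 312 to 363. Whether these libraries stem from different tumours is not stated, so p-values with both arms may understate the spread between animals. With these libraries averaged to 1 sample, the difference from Ctrl was 1.07 for Rps27, 0.93 for Rpl35a, 0.58 for Hsd17b10 and -0.48 for Npm1.

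Rps27a, Hmgn1 and Ube2d3 were called in neither comparison on the deposited scale. Scaling by the median of ratios called Rps27a (limma adjusted p = 0.0386) and Hmgn1 (0.0320) higher in VHH-PD-1-Fc and Ube2d3 higher with both arms (0.0499). Hmgn1 was called lower with both arms after rescaling to TPM (0.0030) and quantile normalization (0.0120). Cnih1 was called higher in VHH-PD-1-Fc (limma adjusted p = 0.0490), and not after rescaling to TPM (adjusted p = 0.371) or quantile normalization (0.0898). H2az1 was called higher in VHH-OD-PD-1-Fc (0.0058), and not under these same settings (0.107 and 0.292). All of these tested source genes were measured in every library, so their copies were listed at 0 in libraries in which the sources were well above 0. The closest named genes of other pseudogenes were too low for the test. Among them Spic was above 0 in every library, and Dnajc5b, Krt81 and Vmn2r113 were not. Gm11456 is 87.5% identical to Rps27 and Gm33312 94.0% identical to Rpl35a over the aligned part, and the part that misplaced reads have in the copies' values was not tested.

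**Figure D4:**
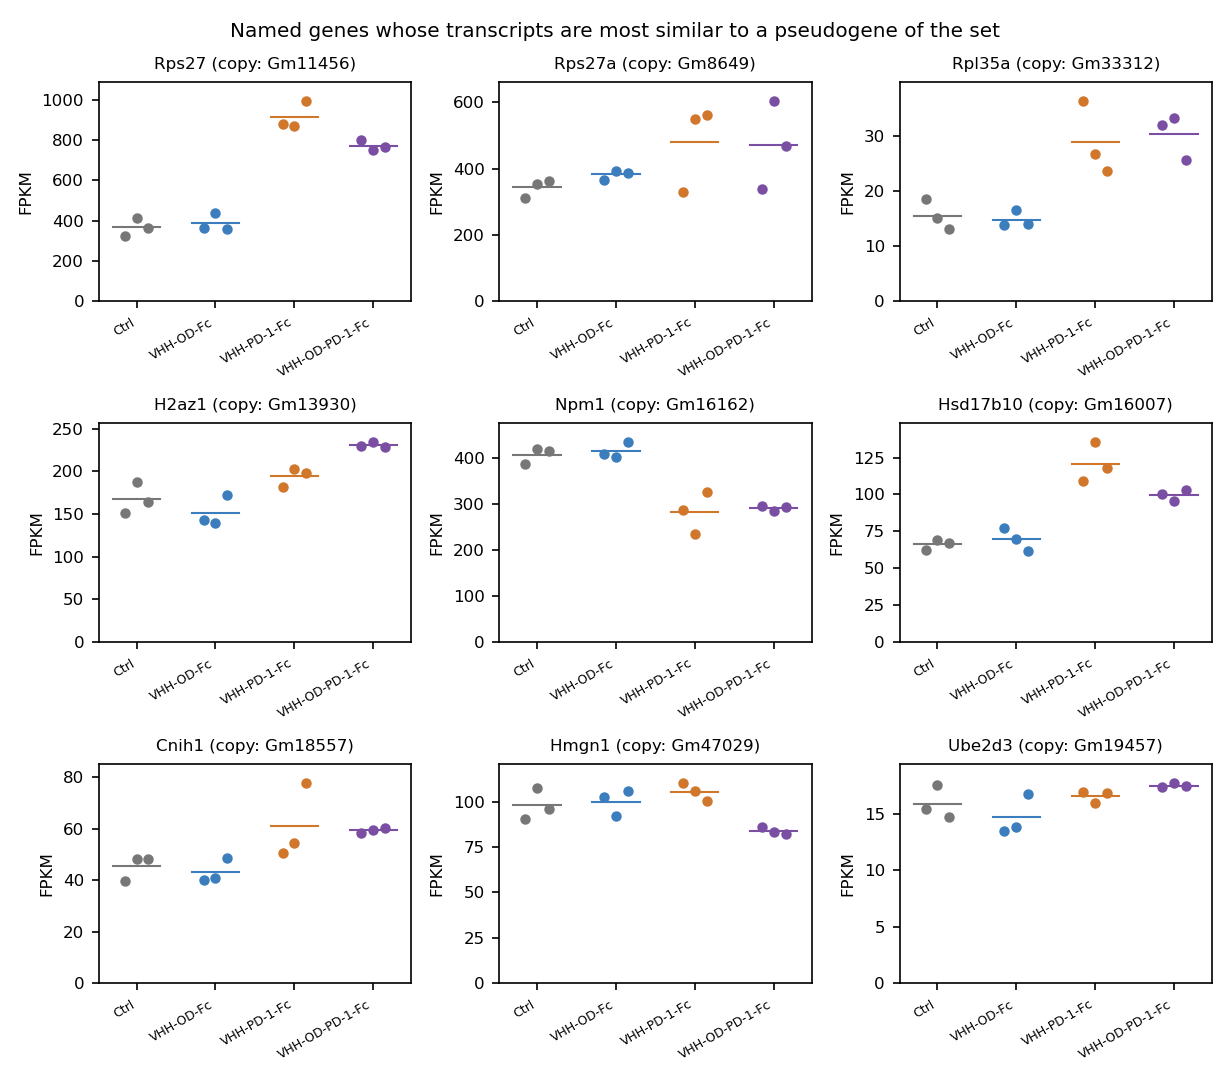
Each panel gives the FPKM of a named gene in the 12 libraries by group, with the group mean as a line and the similar pseudogene in brackets. Rps27, Rpl35a and Hsd17b10 lie higher in the 6 libraries with the PD-1 arm and Npm1 lies lower, and each of these genes is above 0 in all 12 libraries.

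Gene groups tied to these classes did not move as 1 block. Of all genes tested, 14.6% were called higher and 32.3% lower in VHH-PD-1-Fc against Ctrl. In VHH-OD-PD-1-Fc the shares were 15.1% and 27.1%. Of 91 cytosolic ribosomal protein genes tested, 76 were called higher and 3 lower in VHH-PD-1-Fc against Ctrl, with a median difference of 0.87 where the median of all genes was -0.19. In VHH-OD-PD-1-Fc 74 were higher and 1 lower, with medians of 0.73 and -0.14. Of 14 host genes of small nucleolar RNAs, 1 was higher and 5 lower in VHH-PD-1-Fc, with a median of -0.15. In VHH-OD-PD-1-Fc 2 were higher and 2 lower, with a median of 0.02. For so few genes these counts are near the shares of all genes and are no result about the list. Gas5, a host gene whose introns hold several small nucleolar RNAs, fell by 0.58 (SE 0.15) and 0.69 (SE 0.15), and Snhg8 rose by 0.60 (SE 0.11) and 0.39 (SE 0.11). Of 41 replication-dependent histone genes, 5 were higher and 2 lower in VHH-PD-1-Fc and 15 higher and 1 lower with both arms, and of 16 mitochondrial genome transcripts the counts were 2 and 5, and 8 and 0. These small lists moved with the scaling. In VHH-PD-1-Fc the host genes had 1 higher and 0 lower with the median of ratios, 1 and 1 with quantile normalization and 1 and 7 with TPM, and with both arms 3 and 1, 4 and 1, and 0 and 5. The mitochondrial transcripts had 2 and 2, 0 and 7, and 0 and 6 in VHH-PD-1-Fc in the same order, and 10 and 0, 2 and 0, and 4 and 0 with both arms. Scaling by the median of ratios moved the median of all genes to 0.00 in VHH-PD-1-Fc, and rescaling to TPM moved it to -0.38. The median of the ribosomal list stayed above 0 under both and under quantile normalization, while that of the host genes changed sign. The size of the ribosomal median moved, from 0.40 to 1.08 in VHH-PD-1-Fc and from 0.32 to 0.89 with both arms. It was lowest under quantile normalization, where 55 and 47 of the 91 genes were called higher.

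The classes as a whole, with the 58 genes left out, also differed between libraries with and without the arm. Of 7066 pseudogene rows, 2701 to 2933 were above 0 without the arm and 3078 to 4482 with it. Of 503 small nuclear RNA rows with placeholder names, 98 to 122 were above 0 without the arm and 131 to 263 with it. Of 391 such small nucleolar RNA rows the counts were 115 to 123 and 120 to 199, where VHH-PD-1-Fc replicate 2 lay within the range of the libraries without the arm. The 57 small nucleolar RNA rows with established names went the other way, with 44 to 49 above 0 without the arm and 32 to 42 with it. MicroRNA rows did as well in number, with 154 to 181 of 385 without it and 77 to 144 with it. Their FPKM sums overlapped, at 647 to 752 without the arm and 680 to 798 with it.

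Receptor families of sensory neurons showed the widest gap, and they were picked after the names Olfr737-ps1 and Vmn2r-ps18 had been seen, so no test is given. Of 849 other olfactory receptor rows, 47 to 66 were above 0 without the arm and 239 to 536 with it. Of 322 other vomeronasal receptor rows, 18 to 26 were above 0 without it and 117 to 228 with it. Their levels were low, with 849 olfactory rows summing to 7.97 to 13.3 FPKM without the arm and 17.6 to 51.3 with it. Over all other rows, 24924 to 26203 were above 0 without the arm and 25495 to 31618 with it. In each of these families other than the named small nucleolar RNAs, VHH-PD-1-Fc replicate 2 was the lowest library with the arm, and over all other rows its 25495 lay within the range without the arm.

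**Figure D5:**
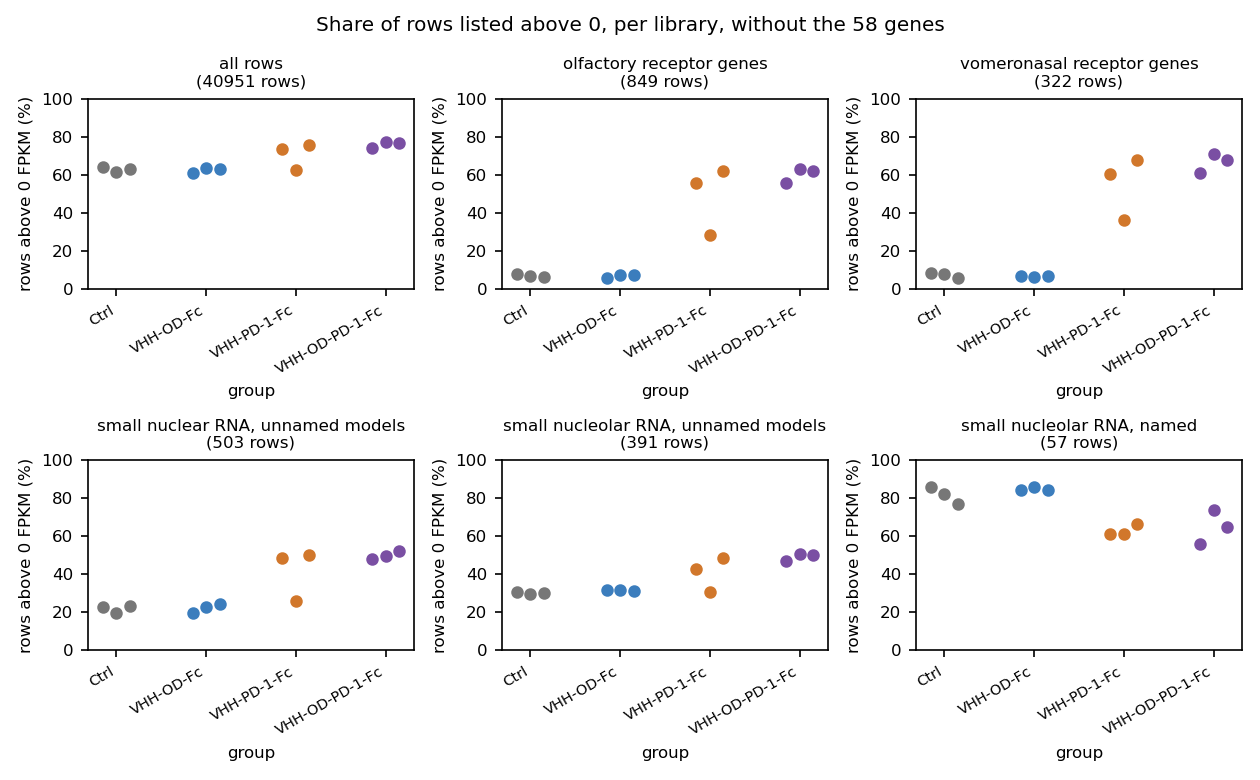
Points give the share of rows above 0 FPKM (%) in each of the 12 libraries, by group, for 6 sets of rows without the 58 genes. Olfactory and vomeronasal receptor rows and small RNA rows with placeholder names are higher with the PD-1 arm, except in VHH-PD-1-Fc replicate 2 for the small nucleolar RNA models, and named small nucleolar RNAs are lower.

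Markers of other cell types were read beside these values. The 5 markers of tumour epithelium were above 0 in all 12 libraries. The neuronal genes Snap25 and Syt1 summed to at most 0.0344 FPKM without the arm and to 0.0678 to 0.277 with it, and 3 germ line markers summed to 0.212 to 1.33 and 0.287 to 0.897. Markers of fibroblasts summed to 425.6 to 816.7 FPKM without the arm and 164.7 to 419.6 with it, and those of leukocytes to 119 to 477 and 123 to 515. The 2 endothelial markers summed to 15.9 to 25.9 without the arm and 8.72 to 11.5 with it, and the 2 of skeletal muscle to 0.329 to 1502 and 0.209 to 129.6. Fibroblast and endothelial sums were lower with the arm and did not overlap between the sets. Neuronal sums were higher with the arm, at very low levels, and did not overlap either. The sums of the other lists overlapped, with adipocyte, erythroid and liver markers among them. Over all genes tested, limma called 32.3% lower in VHH-PD-1-Fc than in Ctrl and 27.1% lower with both arms. In bulk tumour RNA, fewer cells of a type and less RNA per cell cannot be told apart. The part of these differences in the 58 values was not tested.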

How the data were processed

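RNA from 12 tumours or tumour samples was sequenced as paired reads of 150 bp after poly(A) enrichment, per the labels' protocols. The authors deposited 1 table of FPKM values for 41009 gene symbols. HISAT2 2.2.1 and fastp 0.22.0 are named per the submitters' processing notes, as is GRCh38, which is the human and not the mouse assembly. Which program counted fragments, with which annotation and strand setting, and what became of reads that map to several places is not given in the sources used here, so genome coordinates are left out.

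The genes were those at exactly 0 FPKM in 6 libraries, above 0 in the other 6 and at a mean of at least 1 over the latter. The genes, the lists and the settings were chosen with earlier results of these data known. Symbols were matched to GENCODE M21 (36319 rows, 88.6%) for class, length, sequence and overlapping genes, and to RefSeq symbols. Similar genes came from BLAST+ 2.17.0 (blastn, e-value of at most 1e-05, at least 60% of the gene aligned). Reads were recovered from steps in FPKM times length, within 0.05 of a whole read, on values under 0.4. The main test, limma 3.58.1 (R 4.3.3), ran on log2(FPKM + 1) with a variance trend and 8 residual degrees of freedom, over 14306 genes and all 12 libraries, two-sided, adjusted by Benjamini-Hochberg, and was tested on simulated data. Changes of low genes come out too small on this scale, and count models were avoided.

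Genes named were drawn from the 6 of highest mean per class, those called, the 3 on each side of the minimum and their related genes. Gm25877 and Gm54569 also ranked among the 6 of their class and are not described. Other genes are named as examples chosen after their values were seen. The alternatives were 2 smaller pseudocounts, filters, scalings, library weights, a replicate block, subsets of libraries and each library left out.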

Additional observations from a re-analysis of the deposited data

How the results depend on the processing

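The number of genes that met the rule was 163 at a minimum mean of 0.5, 13 at 2, 0 at 5 and 1142 with no minimum, and counting FPKM below 0.05 or 0.1 as 0 kept it within 1.5 times of 58. Leaving out 1 library gave 51 to 117 genes, and the 117 came from leaving out VHH-PD-1-Fc replicate 2. In VHH-OD-PD-1-Fc against VHH-PD-1-Fc, 120 genes in all were called. This was 188 with no filter, 11 with library quality weights, 47 with only the 6 libraries of these groups and 2 after averaging VHH-OD-PD-1-Fc to 1 sample. Leaving out 1 library gave 6 to 549 genes, lowest without VHH-OD-PD-1-Fc replicate 3 and highest without VHH-PD-1-Fc replicate 3. Of the 58 genes, 2 were called. The count was 0 with a pseudocount of 0.1 or 0.01, no filter, weights, the 6 libraries alone or the averaged group, and 1 with TPM, the median of ratios or quantile normalization. It was 0 to 3 when 1 library was left out, and 0 in 8 of these 12 fits, with Ctrl libraries among them. Gm24255 fell below the filter when any 1 VHH-PD-1-Fc library was left out, and no member was left at a minimum of 5. The count of related genes called was 5 in each comparison. It was 8 with the median of ratios in VHH-PD-1-Fc, and 9 with TPM, 12 with weights, 10 with 2 groups and 1 with the averaged group in VHH-OD-PD-1-Fc. Leaving out 1 library gave 4 to 6 and 5 to 7. The causes were not tested. Same-numbered libraries showed no shared deviation (r from -0.15 to 0.18, 1 of 18 pairs over 0.1). Pairs of different number ranged more widely, from -0.46 to 0.43, so these values cannot settle whether the numbers pair the samples. With the replicate block 28 genes and 0 of the 58 were called. Of 26 named genes of the 58 with a fitted value, 14 changed sign in 1 or more alternatives. Depth limits single values: the median gene held 5.5 to 15.5 reads in a library.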

Other observations

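The reverse pattern, above 0 in all 6 libraries without the PD-1 arm and at 0 in all 6 with it, held for 57 rows, of which 10 had a mean FPKM of at least 1. No test is given, since the values chose these genes. Igkv16-104, an immunoglobulin light chain V segment, had 5.40, 0.415 and 4.36 FPKM in Ctrl and 0.394, 25.7 and 2.52 in VHH-OD-Fc. Snord98, a C/D type small nucleolar RNA, had 3.35, 3.32 and 3.06 in Ctrl and 2.29, 5.96 and 5.05 in VHH-OD-Fc. The microRNA rows Mir6991 and Mir8103 had means of 2.21 and 1.67. The other 6 were 3 genes without a class (Gm54512, Gm55498 and Gm56346), the small nucleolar RNA Gm23344, the small nuclear RNA Gm23205 and the pseudogene Gm49286, with means of 1.02 to 1.71.

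A further 1084 rows were absent without the arm and present with it at a mean FPKM under 1. They included 306 long noncoding RNAs, 230 protein-coding genes, 226 pseudogenes and 159 models of a provisional GENCODE class. The median of the mean FPKM was 0.0661 for the protein-coding genes and 0.289 for the pseudogenes. The highest protein-coding gene was Mrgprb3, a receptor of the Mas-related family, with 0.542, 0.0682 and 0.594 FPKM in VHH-PD-1-Fc and 0.735, 0.893 and 0.392 in VHH-OD-PD-1-Fc. Uts2b, the gene of a urotensin peptide, had 0.865, 0.110 and 0.556 against 0.419, 0.623 and 0.331. Lce3a, Oosp3, Hsd17b6 and Tex50 followed with means of 0.408, 0.358, 0.349 and 0.322. VHH-PD-1-Fc replicate 2 held the lowest value in 4 of these 6 genes, and not in Lce3a or Oosp3.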
